A study of Mus musculus with 2 samples.

Results

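The genes described here encode 10 chains of cytokine receptors of T cells outside the IL-2 and Th17 receptor groups. They were chosen by symbol, as receptors for IL-6, IL-7, IL-10, IL-15, IL-21, IL-27, interferon gamma and IL-17. No cut on measured values was used, but earlier results of these data were known at the time. All 10 were found by Entrez identifier among the 13056 genes with such an identifier, and all 10 passed the filter on low values used below. RNA came from wild type CD4+ T cells (C57BL/6 mice, age 6 to 8 weeks) grown for 48 h under conditions that drive Th17 differentiation. One culture held antigen presenting cells (APCs) that carry an OX40L transgene (OX40L-TG APCs), and the other held wild type APCs (WT-APCs). OX40L is the ligand of OX40, a costimulatory receptor of activated T cells. The T cells carried no transgene per the labels, the promoter and cell type that drive OX40L in the APCs are not given in the sources used here, and APCs can contribute RNA to such a culture. Each condition had 1 library, so every difference below is one between 2 libraries, has no replicate check, and carries no p-value of its own.

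Most of these receptors belong to the class I and class II cytokine receptor families, which have no kinase domain and signal through bound JAK kinases and STAT transcription factors. IL-7, IL-15 and IL-21 share the common gamma chain, IL-6 and IL-27 share gp130, and IL-10 and interferon gamma bind class II chains. The IL-17 receptor is of another family and signals through the adaptor Act1. In T cells IL-7 receptor alpha supports the survival of naive and memory cells and is usually lost upon activation, IL-6 and IL-21 act through STAT3 in Th17 development, and IL-10, IL-27 and interferon gamma are best known for limiting or redirecting it.

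The class I chains carry a conserved extracellular signature, the WSXWS box. It is shown first because it is the feature that most of the class I chains here share and that the choice of genes did not use. The lines give 45 coding bases, 5′ to 3′, from the GENCODE M21 transcript (GRCm38) with the longest coding sequence, with the 15 bases of the box in capitals.
Il7r: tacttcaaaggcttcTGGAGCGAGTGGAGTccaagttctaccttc
Il21r: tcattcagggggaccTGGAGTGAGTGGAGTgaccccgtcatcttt
Il6ra: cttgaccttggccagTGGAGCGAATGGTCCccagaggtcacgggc
Il6st: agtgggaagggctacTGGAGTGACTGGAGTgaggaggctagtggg

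The box was found in frame once in each of these 4 genes and in none of the other 6. Il27ra, which is also a class I chain, had no match to the strict pattern. Il21r shares 14 of the 15 box bases with Il7r and 14 with Il6st, whereas Il7r and Il6ra share 11.

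Il7r had the largest difference of the 10 genes, so the 160 bases before its RefSeq start are shown too (GRCm38.p6, chr15:9529877-9530036, minus strand). Capitals mark a TTCNNNGAA match, the core letters bound by STAT proteins, and a CAGGAAG match on the other strand, the letters bound by ETS factors. The motifs do not overlap each other.
Il7r upstream: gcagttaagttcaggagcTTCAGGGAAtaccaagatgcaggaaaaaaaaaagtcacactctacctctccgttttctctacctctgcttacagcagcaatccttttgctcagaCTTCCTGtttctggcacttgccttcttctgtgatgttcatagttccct

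The TTCNNNGAA match begins 142 bases and the CAGGAAG match 48 bases before the RefSeq start. In GENCODE M21 the Il7r gene reaches to 9530176, so the whole window lies within that gene. These distances therefore hold for the RefSeq start only. On either strand, TTCNNNGAA stood in 4.36% and CAGGAAG in 7.54% of the 32851 RefSeq promoter windows of the same length. The letters GTAAACA of forkhead factors (1.95% of windows) were not in the Il7r window. RefSeq windows were at hand for 6 of the 10 genes (Il7r, Il15ra, Il21r, Il6ra, Il6st and Ifngr1), and of these Il7r alone held TTCNNNGAA or CAGGAAG, while Il21r alone held GTAAACA. A match describes letters and is not a measured site.

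Il7r, which encodes IL-7 receptor alpha, and Il10ra, the ligand-binding chain of the IL-10 receptor, were at least 2-fold higher in the OX40L-TG-APC library. None of the 10 was at least 2-fold lower. Values are in FPKM (sequenced fragments divided by transcript length in kilobases and by library size). A log2 change is the log2 ratio of the OX40L-TG-APC to the WT-APC library after adding 1 FPKM to both, and a gene was kept where at least 1 library had 1 FPKM or more. Among all 10645 genes kept, 2.26% were at least 2-fold higher and 1.32% at least 2-fold lower. The median log2 change was 0.12 over the 10 receptor genes and 0.11 over all genes kept, so their centre was that of the table. The group was not uniform, since changes ran from -0.66 (Il17ra) to 1.77 (Il7r). Bulk RNA cannot tell apart fewer cells of a type and less RNA per cell, and this holds for every value here. Ratios are plain FPKM ratios with 95% exact intervals from estimated fragment numbers, which cover counting error only.

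**Figure D1:**
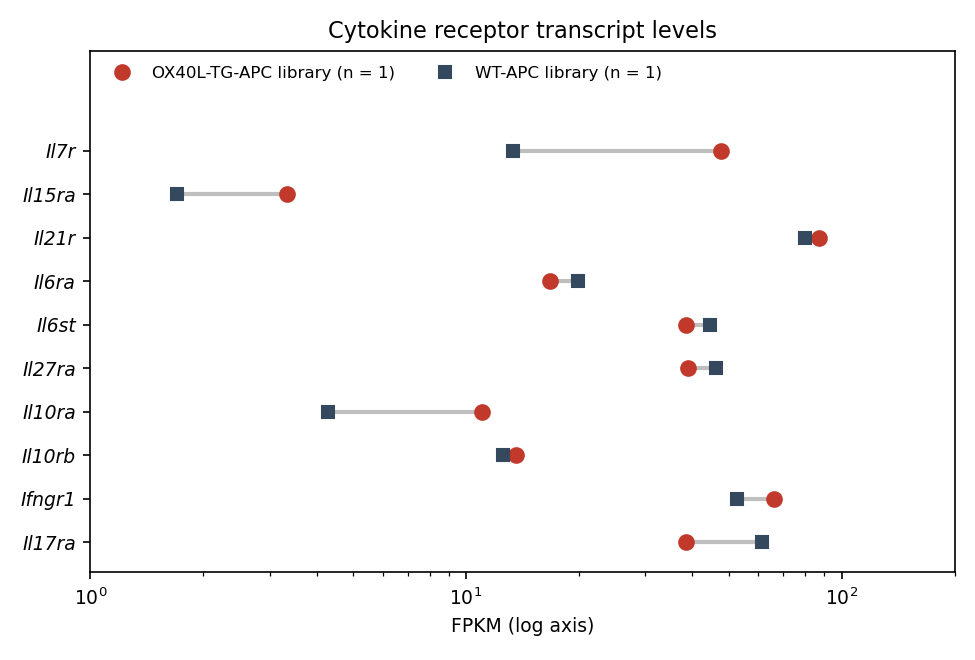
FPKM (log axis) of the 10 receptor genes in the OX40L-TG-APC library (circles) and the WT-APC library (squares), 1 library each, joined by a grey line. Il7r is the most widely separated pair, at 47.8 and 13.3 FPKM, and Il21r the highest gene in both libraries.

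Il21r, the private chain of the IL-21 receptor, was the highest of the 10 in both libraries, and Il15ra the lowest. In the OX40L-TG-APC library the order was Il21r, Ifngr1, Il7r, Il27ra, Il6st, Il17ra, Il6ra, Il10rb, Il10ra and Il15ra. There Il27ra, Il6st and Il17ra stood at 39.0, 38.6 and 38.5 FPKM with overlapping 95% Poisson intervals, so their order is not resolved even by counting error. In the WT-APC library the order was Il21r, Il17ra, Ifngr1, Il27ra, Il6st, Il6ra, Il7r, Il10rb, Il10ra and Il15ra. There the intervals of Il27ra (44.8 to 48.1 FPKM) and Il6st (43.0 to 46.2 FPKM) overlapped as well. Il7r thus held position 3 in the OX40L-TG-APC library and position 7 in the WT-APC library, where its interval (12.4 to 14.2 FPKM) overlapped that of Il10rb (11.4 to 13.7 FPKM). Il17ra held position 6 in the OX40L-TG-APC library and position 2 in the WT-APC library. Il7r was above 83.5% of all genes kept in the OX40L-TG-APC library and above 50.2% of them in the WT-APC library.

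The chains that work with the common gamma chain were Il7r, Il15ra and Il21r, and their differences were graded. Il7r (Entrez 16197, chromosome 15, 9506158 to 9529876) had 47.8 FPKM in the OX40L-TG-APC library against 13.3 FPKM in the WT-APC library. The ratio was 3.59 (3.33 to 3.88) from about 3434 and 835 fragments, and 43 of the 10645 genes kept had a larger log2 change. In the authors' deposited table the log2 ratio of Il7r was 1.88 with a p-value of 5e-05, which compares the libraries and not the conditions. Il15ra (Entrez 16169, chromosome 2, 11705292 to 11733985), which encodes the chain that binds and presents IL-15, had 3.33 FPKM against 1.70 FPKM. Its ratio of 1.96 has a wide interval (1.40 to 2.84), since only about 109 and 48 fragments were behind it, and its log2 change of 0.68 did not reach 2-fold. Il21r (Entrez 60504, chromosome 7, 125603428 to 125633570) had 87.2 FPKM against 79.9 FPKM, a ratio of 1.09 (1.05 to 1.14). With the median ratio of well-expressed genes set to 0 the log2 change of Il21r was -0.0017 instead of 0.12, so no direction can be given for it.

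The shared chains of these receptors were abundant in both libraries. Il2rg, the common gamma chain, had 227 FPKM in the OX40L-TG-APC library and 199.8 FPKM in the WT-APC library, a ratio of 1.14 (1.09 to 1.18). Il2rb, the beta chain that IL-15 and IL-2 share, had 327 FPKM against 233 FPKM, a ratio of 1.40 (1.38 to 1.43). The Il2rg to Il21r FPKM ratio was 2.61 with OX40L-TG APCs and 2.50 with WT-APCs, nearly the same in both. Il2ra, Il4ra, Il7r, Il15ra, Il21r and Il9r encode chains of receptors that use the common gamma chain. Of their summed FPKM, Il7r made up 13.1% in the OX40L-TG-APC library and 5.15% in the WT-APC library. Il4ra, the IL-4 receptor alpha chain, made up 19.0% and 25.9%, although its own level was 69.6 FPKM against 66.8 FPKM.

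**Figure D2:**
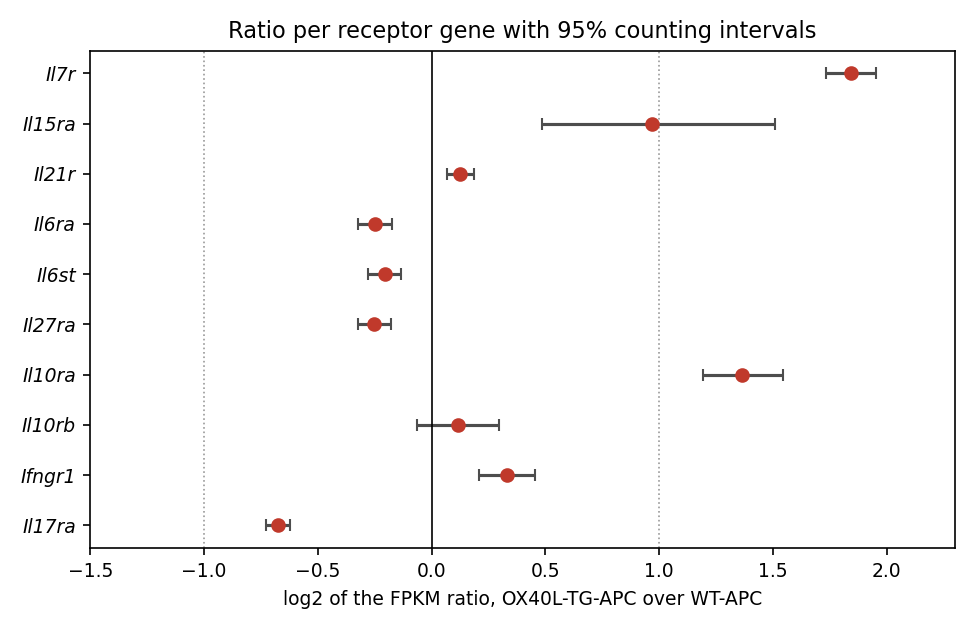
Log2 of the plain FPKM ratio (OX40L-TG-APC over WT-APC) per receptor gene, with 95% exact intervals for counting error; the solid line marks 0 and the dotted lines 2-fold. Il7r and Il10ra lie wholly beyond 2-fold, the interval of Il15ra spans it, and the interval of Il10rb includes 0.

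The IL-6 and IL-27 receptor chains moved little, and all of them had the lower value in the OX40L-TG-APC library. Il6ra (Entrez 16194, chromosome 3, 89862664 to 89913162), the IL-6 binding chain, had 16.7 FPKM in the OX40L-TG-APC library against 19.9 FPKM in the WT-APC library, a ratio of 0.841 (0.799 to 0.886). Il6st (Entrez 16195, chromosome 13, 112464069 to 112506860), which encodes the signal transducer gp130, had 38.6 FPKM against 44.5 FPKM, a ratio of 0.867 (0.824 to 0.911). Il27ra (Entrez 50931, chromosome 8, 84021473 to 84044979), the chain that joins gp130 in the IL-27 receptor, had 39.0 FPKM against 46.4 FPKM, a ratio of 0.840 (0.799 to 0.884). The 3 log2 changes lay between -0.25 and -0.20, below the median of all genes, and 9.75% to 11.8% of the genes kept had a smaller log2 change. Both rescalings tried lower the OX40L-TG-APC values, so these changes could only move further below 0 and the rescalings do not check their direction.

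The proportions between these chains were nearly the same in both libraries. The FPKM ratio of Il6st to Il6ra was 2.31 with OX40L-TG APCs and 2.24 with WT-APCs, and that of Il6st to Il27ra was 0.990 and 0.960. Il6ra can be shed from the cell surface, and the sheddase genes Adam10 (16.0 FPKM with OX40L-TG APCs, 18.2 FPKM with WT-APCs) and Adam17 (22.9 and 22.0 FPKM) and the Adam17 cofactor gene Rhbdf2 (4.05 and 4.18 FPKM) were all short of 2-fold. Their median log2 change was -0.039. The table gives 1 value per gene, so soluble and membrane forms are not separated.

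Of the 3 class II chains, Il10ra was the one past 2-fold. Il10ra (Entrez 16154, chromosome 9, 45172725 to 45396159) had 11.0 FPKM in the OX40L-TG-APC library and 4.28 FPKM in the WT-APC library. Its ratio was 2.58 (2.29 to 2.92), and 156 of the genes kept had a larger log2 change than its 1.19. The authors' deposited table gave Il10ra a log2 ratio of 1.40 with a p-value of 0.00425. With a pseudocount of 5 the log2 change of Il10ra was 0.79, short of 2-fold. The printed locus of Il10ra is wider than the gene and holds 2 further genes of the table, Tmprss13 and BC049352, neither of which reached 0.1 FPKM in either library. That of Il27ra also holds a further gene, Rln3 (0.864 FPKM with OX40L-TG APCs, 0.484 FPKM with WT-APCs).

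Il10rb, the partner chain that IL-10 shares with IL-22 and the lambda interferons, did not follow its partner. Il10rb (Entrez 16155, chromosome 16, 91406234 to 91425834) had 13.6 FPKM against 12.5 FPKM. Its ratio of 1.08 lay within counting error of 1 (0.956 to 1.23). The log2 change of 0.11 for Il10rb was -0.01 with the median ratio set to 0 and -0.06 with equal totals. The FPKM ratio of Il10rb to Il10ra was therefore 1.23 in the OX40L-TG-APC library and 2.92 in the WT-APC library. Ifngr1 (Entrez 15979, chromosome 10, 19590533 to 19610225), the ligand-binding chain for interferon gamma, had 66.2 FPKM against 52.6 FPKM, a ratio of 1.26 (1.16 to 1.37). Its signalling partner Ifngr2 had 31.6 FPKM and 30.7 FPKM, with an interval of 0.968 to 1.09 that included 1. The Ifngr1 to Ifngr2 ratio was 2.10 with OX40L-TG APCs and 1.71 with WT-APCs.

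Il17ra, the chain shared by the receptors of the IL-17 family, had the most negative change of the 10. Il17ra (Entrez 16172, chromosome 6, 120463196 to 120483727) had 38.5 FPKM in the OX40L-TG-APC library and 61.4 FPKM in the WT-APC library, from about 5247 and 7309 fragments. Its ratio was 0.626 (0.605 to 0.649), and 2.87% of the genes kept had a smaller log2 change. Il17re, which pairs with Il17ra in the receptor for IL-17C, had 5.31 FPKM against 10.7 FPKM, a ratio of 0.499 (0.433 to 0.574) and a log2 change of -0.88. Il17rc, the partner of Il17ra in the receptor for IL-17A and IL-17F, was under 1 FPKM in both libraries (0.582 and 0.674 FPKM), as was Il17rb (0.0525 and 0.161 FPKM). Of 9 genes of IL-17 receptor signalling none reached 2-fold. Their median of 0.13 was -0.04 with equal totals, so the list has no set direction. Traf3ip2, which encodes Act1, had 9.38 FPKM against 8.58 FPKM, and Traf6, the ubiquitin ligase downstream of it, had 42.5 FPKM against 28.0 FPKM.

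**Figure D3:**
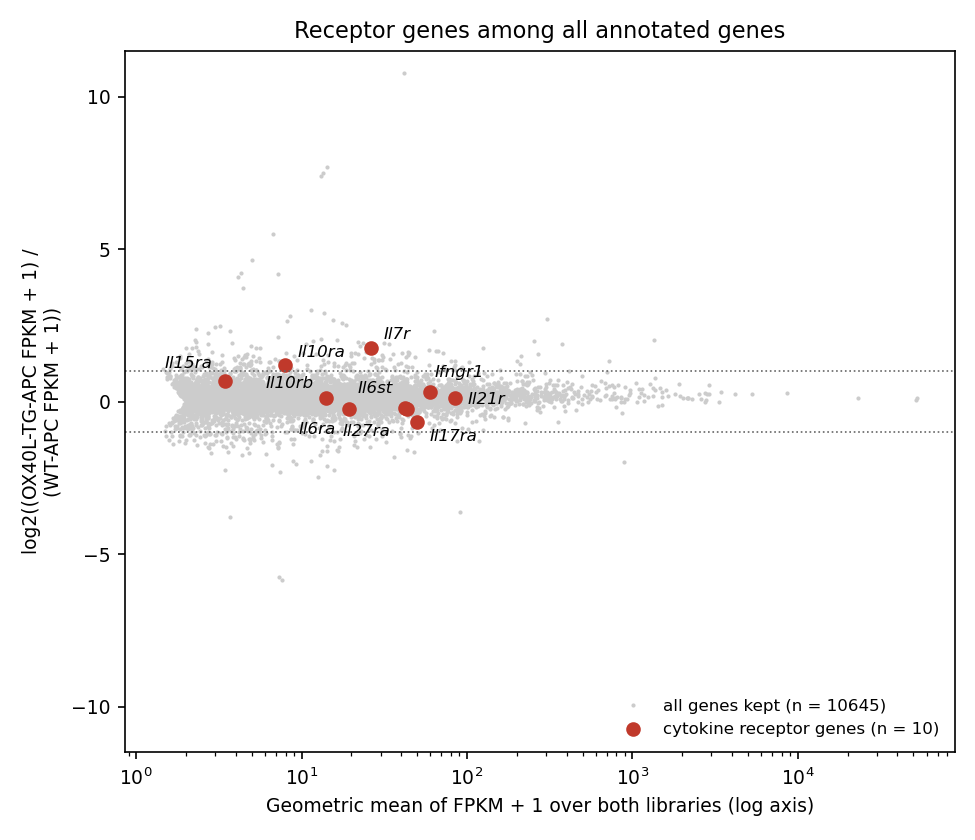
Log2 change (pseudocount 1) against the geometric mean of FPKM + 1 over both libraries (log axis) for the 10645 genes kept (grey) and the 10 receptor genes (red); dotted lines mark 2-fold. Il7r and Il10ra lie above the upper line and the other 8 between the lines.

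The ligands of these receptors were compared from a list of 15 cytokine genes, of which 12 were in the table and 9 were kept. At least 2-fold higher was 1 of them, Il22 (6.16 FPKM with OX40L-TG APCs, 2.46 FPKM with WT-APCs), a cytokine that uses Il10rb, and its log2 change fell short of 2-fold under both rescalings. At least 2-fold lower were 3: Il17a, Il17f and Il10. Il10 had 16.3 FPKM in the OX40L-TG-APC library and 36.7 FPKM in the WT-APC library, a ratio of 0.443 (0.402 to 0.490), so the IL-10 gene and its receptor gene Il10ra differed in opposite directions. Il17a and Il17f, ligands of the Il17ra and Il17rc complex, were lower like Il17ra, at 24.7 against 315 FPKM and 450.3 against 1764 FPKM. Il21 (191 against 134.5 FPKM) was the most abundant ligand of a class I chain after Lif (200.4 against 210.2 FPKM), the gp130 cytokine. Ebi3, a subunit of IL-27, had 8.15 FPKM against 4.44 FPKM, while Il27, the other subunit, was listed at 0 in both. Il6 (0.216 against 0.404 FPKM) and Il15 (0.239 against 0.369 FPKM) were under 1 FPKM, and their intervals included 1. Osm, which encodes another gp130 cytokine, had 20.2 FPKM against 14.3 FPKM. The listed genes Il7, Tslp and Il11 were not analysed here.

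Of 18 further chains that pair with these receptors or belong to their complexes and close relatives, 14 were in the table and 9 were kept, with 1 higher and 1 lower by at least 2-fold. The higher one was Il12rb2, of the IL-12 receptor (27.2 against 12.7 FPKM), and the lower one Il23r, of the IL-23 receptor (14.9 against 31.4 FPKM). Under both rescalings Il12rb2 fell short of 2-fold, and with equal totals 2 of the 9 were lower. Crlf2, the chain that joins Il7r in the receptor for TSLP, had 30.4 FPKM against 33.5 FPKM, so that Il7r exceeded Crlf2 in the OX40L-TG-APC library only. Il12rb1, the other chain of the IL-12 and IL-23 receptors, had 54.4 FPKM against 43.5 FPKM, and Il11ra1, the IL-11 receptor alpha gene, had 2.66 FPKM against 0.931 FPKM with a log2 change of 0.92. Lifr, Ifnlr1 and Il20rb, chains of the LIF, interferon lambda and IL-20 receptor complexes, were under 1 FPKM in both libraries. Among 17 other cytokine receptor genes of T cells, 16 were in the table and 11 kept, and none reached 2-fold. Their median was -0.26, and 9 of the 16 had the lower value in the OX40L-TG-APC library. Nearest to 2-fold were the IL-1 receptor gene Il1r1 (24.1 against 48.5 FPKM) and the IL-18 receptor gene Il18r1 (5.57 against 10.6 FPKM). Il1r1 passed 2-fold under both rescalings.

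Downstream of the class I and II chains, none of 12 genes of JAKs, STATs and Irf9 reached 2-fold, with a median of 0.26. This median was 0.13 with the median ratio set to 0 and 0.08 with equal totals. Jak1, which binds most of these chains, had 67.2 FPKM against 74.5 FPKM, and Jak3, the kinase of the common gamma chain, had 110.8 FPKM against 100.6 FPKM. Jak2, which serves Ifngr2, had 92.9 FPKM against 75.6 FPKM, and Tyk2, which serves Il10rb, had 16.7 FPKM against 14.8 FPKM. Stat3, the main STAT of IL-6, IL-10, IL-21 and IL-27 signalling, had the largest change in this list at 253.8 against 158.8 FPKM, with a ratio between 1.53 and 1.67 by counting error. Stat5a, used by IL-7 and IL-15, had 83.4 FPKM against 56.9 FPKM, and its relative Stat5b had 95.01 FPKM against 81.4 FPKM. Stat3 and Stat5a are printed at the same merged locus.

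Inhibitors of JAK-STAT signalling included 2 of 17 genes that were at least 2-fold higher and none that was lower. The list median was 0.025 as deposited, -0.09 with the median ratio set to 0 and -0.14 with equal totals. These were Cish (60.7 against 24.9 FPKM) and Socs2 (25.4 against 11.1 FPKM), which STAT5 is known to induce, and Socs2 fell short of 2-fold under both rescalings. Socs3, the inhibitor that acts on gp130, had 93.5 FPKM against 105.6 FPKM, and Socs1, an inhibitor of interferon gamma signalling, had 97.1 FPKM against 75.2 FPKM.

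Known targets of STAT5 centred above 0, also under both rescalings, and those of STAT3 below it. Both rescalings lower the OX40L-TG-APC values, so the STAT3 median could only move further below 0. Pim1 is in both lists. Some of their genes, such as Cish, Socs2, Il21 and Il23r, are also counted in the lists above. The target lists were chosen with earlier results of these data known. Of 11 STAT5 targets 3 were at least 2-fold higher (Cish, Socs2 and the survival gene Bcl2, at 42.8 against 15.4 FPKM) and none lower, with a median of 0.68. Among 13 STAT3 targets the median was -0.47, and 3 of them were past 2-fold, all on the lower side. The lower ones were Maf (74.3 against 184 FPKM), Icos (30.1 against 67.0 FPKM) and Il23r, and Il21 was one of 3 with the higher value in the OX40L-TG-APC library. Of 18 kept targets of interferon gamma 1 was higher, the transcription factor gene Irf8 (64.1 against 28.4 FPKM), and 1 was lower, Ido1 (3.29 against 7.73 FPKM), with a median of 0.32. Irf8 fell short of 2-fold with equal totals. Ifng itself was low in both libraries, at 1.78 and 1.46 FPKM. The median of all genes was 0.11, and no test of the lists was made.

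**Figure D4:**
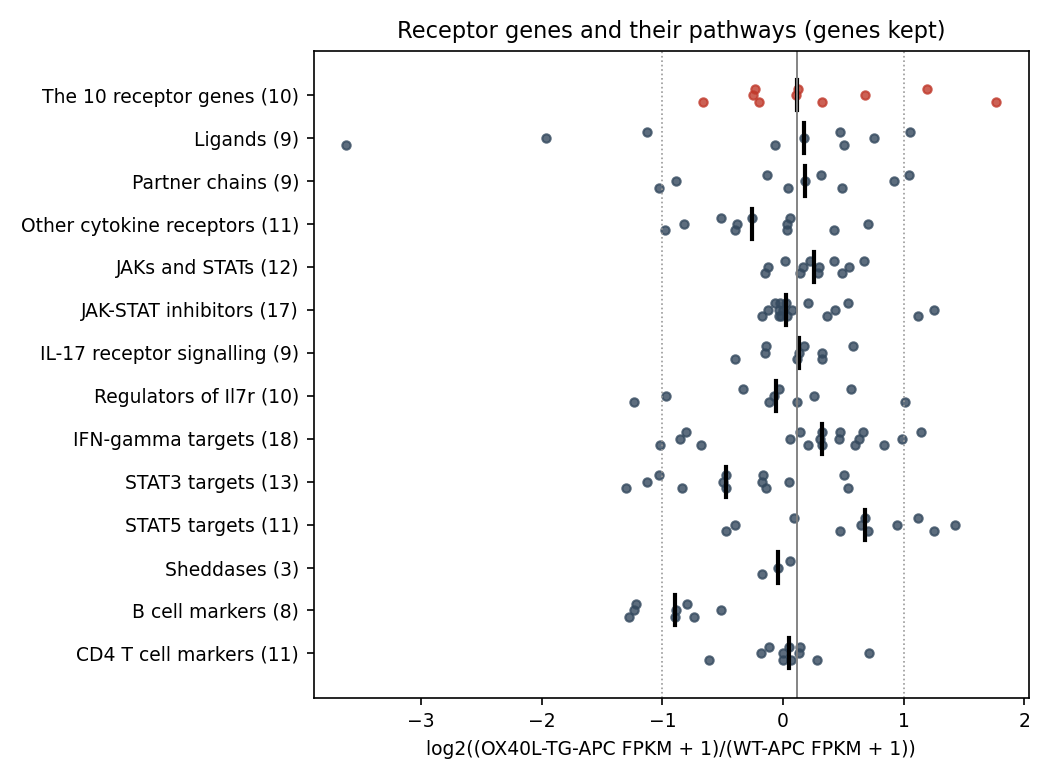
Log2 change (pseudocount 1) of every kept gene in the receptor group, its pathway lists and 2 marker lists, with the number kept in brackets; black bars are list medians, the grey line the median of all genes (0.11), and dotted lines 2-fold. STAT5 targets centre at 0.68, STAT3 targets at -0.47 and B cell markers at -0.89, while the receptor group centres at 0.12.

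A list of 10 genes, of factors known to control Il7r in lymphocytes and of Klf2, was compared because Il7r differed most. FOXO1 activates Il7r in T cells, FOXP1 opposes FOXO1 there, GFI1 represses Il7r, and GABP binds its promoter. Foxo1 had 34.7 FPKM in the OX40L-TG-APC library and 43.9 FPKM in the WT-APC library, a ratio of 0.790 (0.767 to 0.814). Foxp1 had 7.63 FPKM against 19.3 FPKM, a ratio of 0.396 (0.343 to 0.454), and was the 1 of 10 listed factors that was at least 2-fold lower. Foxo3 had 18.7 FPKM against 8.78 FPKM and was the 1 that was at least 2-fold higher, though it fell short under both rescalings. Under both, 2 of the listed genes were lower instead of 1, Foxp1 and Klf2. Gfi1 had 37.1 FPKM against 30.9 FPKM, and the GABP alpha gene Gabpa had 21.4 FPKM against 19.7 FPKM with an interval that included 1. Klf2, which is in the list as another FOXO1 target of quiescent T cells, had 9.07 FPKM against 18.7 FPKM, the opposite direction to Il7r. The list median was -0.055.

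The expressed genes nearest to Il7r on the chromosome had higher values in the OX40L-TG-APC library too, as did 68.3% of all genes kept. Capsl, which begins 40.1 kb beyond one end of Il7r, had 6.77 FPKM against 1.67 FPKM, a ratio of 4.06 (2.79 to 6.00). Spef2, 48.3 kb beyond the other end, had 2.38 FPKM against 1.10 FPKM, a ratio of 2.16 (1.67 to 2.82). Capsl passed 2-fold on the log2(FPKM + 1) scale (1.54), and Spef2 did not (0.68). Both genes were picked by position alone, as the nearest kept gene on each side, and whether they differ for a shared reason was not tested. The next kept gene on each side, Lmbrd2 at 304 kb and Dnajc21 at 917 kb, had ratios of 1.37 (1.16 to 1.63) and 1.45 (1.34 to 1.57).

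Several of the other receptor genes lie beside receptor genes as well. Il15ra lies 12.0 kb from Il2ra, the IL-2 receptor alpha gene, and Il2ra had 157 FPKM against 96.5 FPKM, a ratio of 1.63 (1.55 to 1.72), while Fbh1 on the other side of Il15ra, at 8.59 kb, had a ratio of 1.20 (1.04 to 1.38). Il21r lies 23.8 kb from Il4ra, and the interval of the Il4ra ratio (0.989 to 1.10) included 1. Il10rb lies 0.568 kb from the interferon receptor gene Ifnar2, which had 29.4 FPKM against 21.8 FPKM, and 59.2 kb from Ifnar1, which had 11.7 FPKM against 11.4 FPKM with an interval that included 1. The genes nearest to Il17ra, Kdm5a and Hdhd5, had ratios of 1.04 (0.940 to 1.15) and 0.945 (0.861 to 1.04), so the lower value of Il17ra was not shared by them. For Il10ra and Ifngr1 no kept gene lay within 100 kb.

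**Figure D5:**
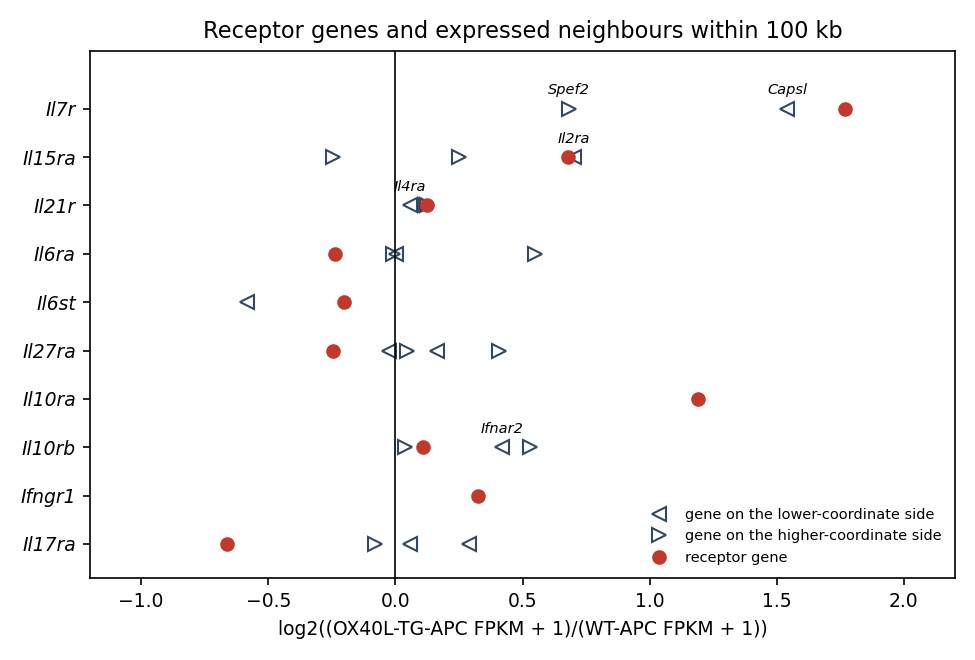
Log2 change (pseudocount 1) of each receptor gene (red) and of up to 2 nearest kept genes on each side within 100 kb (open triangles, pointing to the side of lower or higher coordinate). Both neighbours of Il7r lie right of 0, as do 68.3% of all genes kept. Il2ra lies on the value of Il15ra, and the neighbours of Il17ra lie right of it.

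Depth was estimated at 28381134 fragments for the OX40L-TG-APC library and 24767945 for the WT-APC library, both rough. The labelled cell type was borne out by 11 CD4 T cell markers found in the table, whose summed level was 2711 FPKM in the OX40L-TG-APC library against 2538 FPKM in the WT-APC library. Markers of B cells, which also express Il21r, Il10ra and Il6st, summed to 23.3 FPKM and 53.6 FPKM in the same order, and all 10 had the lower value in the OX40L-TG-APC library with none at 0. Those at least 2-fold lower included Cd79a (a ratio of 0.338) and Blnk (2.32 against 7.02 FPKM). Macrophage and monocyte markers summed to 16.7 FPKM and 17.0 FPKM over 10 genes with none at 0, mostly Cebpb in the OX40L-TG-APC library (11.6 against 5.58 FPKM), and 8 had the lower value in the OX40L-TG-APC library, Csf1r among them at 0.134 and 0.359 FPKM. Past 2-fold were Lyz2 (1.01 against 4.55 FPKM) and Tyrobp (0.827 against 2.87 FPKM), both lower. Dendritic cell markers summed to 218 FPKM and 168 FPKM over 10 genes, mostly Ccr7, which T cells express as well. Past 2-fold were Batf3, which was higher (21.5 against 2.18 FPKM), and Flt3 (1.09 against 3.46 FPKM) and Cd86 (6.07 against 13.4 FPKM), which were lower. Clec9a and Siglech of that list were at 0 in the OX40L-TG-APC library and Cd209a in the WT-APC library. The 7 CD8 T cell and natural killer cell markers summed to 12.2 FPKM and 14.6 FPKM with none at 0. The part of these cells in the receptor values was not tested. Il17ra, Il27ra, Il6ra and Il6st had the lower value in the OX40L-TG-APC library, like the B cell markers. The other 6 receptor genes had the higher one, as did 68.3% of all genes kept. Of these 6, Il21r and Il10rb changed sign under both rescalings.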

How the data were processed

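RNA of 2 cultures was sequenced, with 1 µg of total RNA per TruSeq library, per the labels' protocols. The authors deposited FPKM per gene, made with TopHat2 and Cuffdiff on mm9 per the submitters' processing notes. The printed loci overlapped the GRCm38 gene for 99.7% of 13030 genes with a RefSeq symbol, so coordinates are given as printed and follow GRCm38. The sources used here give no tool versions, gene models or strand handling. The authors also deposited a comparison table of 398 genes with a log2 ratio and a p-value per the file headers. The median ratio of its WT-APC FPKM to the fuller file's was 0.976. In that fuller file, 58.9% of features had a value of over 6 significant digits, which a mean of several values can give, and how this arose was not stated.

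Values were analysed with Python 3.11.15 and SciPy 1.17.1. Fragment numbers came from the 1-fragment steps of FPKM under 0.3 in 348 genes with 1 curated transcript of at least 1500 bases. At a step ratio of 1.15, 63.8% of these genes gave ratios of whole numbers up to 10 within 0.2%, against 3.45% elsewhere. Fragments per gene used the median length of its GENCODE transcripts and are rough. The depth estimate, the counting intervals and the log2 changes were tested on simulated data in which the transcript lengths were known. The other procedures were not tested in this way. The receptor genes, the 11 pathway lists and the 5 marker lists were chosen with earlier results of these data known. Named genes are the 10 receptor genes, list members past 2-fold and those that bind or signal beside a receptor gene; the other genes named, such as position neighbours, were picked by position or after their values were seen. Other pseudocounts, filters, thresholds and scalings and the authors' comparison table were tried as alternatives. Some listed genes that this rule names are not reported here. No test was possible with 1 library per condition, and libraries may differ for technical reasons.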

Additional observations from a re-analysis of the deposited data

How the results depend on the processing

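Il7r stayed at least 2-fold higher in the OX40L-TG-APC library under each pseudocount, filter and rescaling tried, with log2 changes of 1.53 to 1.84, and Il10ra did so except with a pseudocount of 5, which left 1 receptor gene at 2-fold. With the threshold at 1.5-fold, 3 receptor genes were higher and 1, Il17ra, was lower. The median over the receptor genes was -0.0061 with the median ratio set to 0 and -0.056 with equal totals, where the median of all genes was -0.0022 and -0.05. Il21r and Il10rb changed sign under both. Over all genes, 101 were higher and 39 lower with a pseudocount of 5, 405 and 251 with one of 0.1, and 767 and 360 at 1.5-fold. The share of higher calls was lower after rescaling, with 188 higher and 175 lower at the median ratio and 168 and 187 with equal totals, against 241 and 141 as deposited. Changes of single receptor genes were recomputed 61 times. Of these, 45 moved by less than the log2 distance from the gene's plain ratio to the bound of its counting interval on that side. That count includes the values under other filters, which cannot alter a gene's own change. The other 16 moved by more, and no change past 2-fold reversed. Il15ra has no value with the filter at 5 FPKM and, with about 48 fragments in the WT-APC library, is the receptor gene limited most by depth. No paired analysis was possible because each condition had 1 library.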

Other observations

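Features without an Entrez identifier were printed at the loci of 4 of the receptor genes. The feature n293828, printed at the Il21r locus, had 7.10 FPKM in the OX40L-TG-APC library and 7.65 FPKM in the WT-APC library, while Il21r itself had 87.2 and 79.9 FPKM. The other 4 such features, at the loci of Il27ra, Il10rb and Ifngr1, were under 1 FPKM in both libraries. What these identifiers stand for is not explained in the file.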
